A study of Mus musculus with 3 samples.

Results

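The cytoplasmic ribosome is built from ribosomal RNA and a set of ribosomal proteins, each encoded by its own gene. Members were taken by symbol from the deposited feature table: Rpl or Rps followed by a number and its usual suffix, or Rpsa, Rplp0, Rplp1 or Rplp2, with features marked as pseudogenes (-ps) left out. This gave 83 genes of the 32285 features. The rule uses names only and no measured value. Fau, Rpl36al and Rack1 also give ribosomal proteins but fall outside the symbol rule, and are described with the other translation genes.

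Proteins named Rps sit in the small subunit, which reads the messenger RNA, and proteins named Rpl sit in the large subunit, which forms the peptide bond. Rplp0, Rplp1 and Rplp2 form the stalk of the large subunit that recruits elongation factors. Most members carry a run of pyrimidines at the start of their messenger RNA, the terminal oligopyrimidine (TOP) motif, through which their translation follows growth signals. In skin, basal keratinocytes of the epidermis and the cells of the hair follicle renew the tissue and have a high demand for protein synthesis.

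Transcripts of single cells from back skin of C57BL/6 mice were counted in 3 libraries, 1 per group, with the 10x Genomics 3′ chemistry. The control had the genotype K5-Cre-er/Piezo1fl/+/Tdfl/+ and was taken on postnatal day 62. The 2-week knockout, K5-Cre-er/Piezo1fl/fl/Tdfl/+, was also taken on day 62, and the 3-week knockout, K5-Cre-er/Piezo1fl/fl/Tdfl/fl, on day 71. All 3 groups received tamoxifen from day 48 to day 52, so the control carried the Cre driver, 1 floxed Piezo1 allele and the drug too. The driver is named for keratin 5, a gene of basal keratinocytes. The 3-week knockout had no control of its own age and carried 2 floxed Td alleles instead of 1. Both comparisons used the same control library, and with 1 library per group no difference has a replicate check, so none was tested. Every interval below is a 95% interval that covers counting error only.

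After filtering, the control held 4912 cells, the 2-week knockout 9585 and the 3-week knockout 9599. The median cell had 9989, 7506 and 8768 unique molecular identifiers (UMIs), each standing for 1 captured transcript. Piezo1, the targeted mechanically gated channel, was counted at 33.0, 22.6 and 15.04 counts per 1e6 UMIs (CPM) in interfollicular basal-like cells of the control, the 2-week and the 3-week knockout. In fibroblast-like cells, outside the epithelium, Piezo1 had 63.0, 61.4 and 41.9 CPM, so the 3-week knockout was lowest there too. These 3′ counts need not cover the deleted part, whose position is not given in the sources used here. The libraries shared between 12 and 20 cell barcodes by pair. Cell classes are likenesses by marker genes, and clusters without a class name are called by a leading gene. All 9 basal markers reached 50 CPM in basal-like cells of every library, whereas dermal papilla-like cells had 5 or 6 of their 9 markers at that level.

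Some of the sequences carry the findings. The first set shows the coding sequences of Rps27 with Rps27l, of Rpl39 with Rpl39l, and of Rpl41, the shortest member. Both pairs are paralogues that differed between cell classes, as did other pairs described below. The sequences were taken from the GENCODE transcripts of mm10 and are written 5′ to 3′. Capitals mark the bases at which the members of a pair differ, and Rpl41 is printed without capitals. Rps27 lies at chr3:90212522-90213651 (minus strand) and Rps27l at chr9:66946086-66949516 (plus strand). Their coding sequences were identical at 194 of 255 bases, or 76.1%. Rpl39 lies at chrX:37082520-37085402 (minus strand) and Rpl39l at chr16:10170226-10174911 (plus strand), and they were identical at 133 of 156 bases, or 85.3%. Rpl41 lies at chr10:128548114-128549305 (minus strand).
Rps27: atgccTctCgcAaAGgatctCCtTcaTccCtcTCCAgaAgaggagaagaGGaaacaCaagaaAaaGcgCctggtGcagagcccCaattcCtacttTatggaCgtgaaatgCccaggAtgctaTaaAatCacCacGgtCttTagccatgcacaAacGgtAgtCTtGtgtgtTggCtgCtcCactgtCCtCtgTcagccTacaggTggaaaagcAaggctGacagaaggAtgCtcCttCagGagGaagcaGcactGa
Rps27l: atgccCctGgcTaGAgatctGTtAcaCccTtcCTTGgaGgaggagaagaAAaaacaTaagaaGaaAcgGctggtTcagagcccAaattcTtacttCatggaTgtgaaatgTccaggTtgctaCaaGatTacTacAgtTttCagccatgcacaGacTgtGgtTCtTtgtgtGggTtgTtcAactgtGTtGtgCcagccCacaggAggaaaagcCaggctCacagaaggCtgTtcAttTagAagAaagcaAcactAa
Rpl39: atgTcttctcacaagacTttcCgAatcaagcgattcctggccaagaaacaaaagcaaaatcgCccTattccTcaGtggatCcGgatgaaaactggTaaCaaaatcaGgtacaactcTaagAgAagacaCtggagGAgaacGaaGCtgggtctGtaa
Rpl39l: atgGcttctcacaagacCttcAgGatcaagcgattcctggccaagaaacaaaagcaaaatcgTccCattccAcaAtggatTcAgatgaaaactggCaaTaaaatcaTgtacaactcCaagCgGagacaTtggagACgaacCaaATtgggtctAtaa
Rpl41: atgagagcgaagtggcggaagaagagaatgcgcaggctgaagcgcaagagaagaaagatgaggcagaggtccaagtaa

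The second set shows 90 bases around the listed transcription start of 4 members high in the comparisons below (Rpl35, Rpl10, Rpl38 and Rps27) and of Rpl4, which was among the lowest. Each begins 60 bases before the RefSeq start (GRCm38.p6, the mm10 assembly) and is written in the direction of transcription. Capitals from the position after base 60 mark an unbroken run of C or T that starts with C at the transcription start, and capitals before it mark the ETS motif CCGGAAG. Rpl35 is read from chr2:39005102-39005191 (minus strand), Rpl10 from chrX:74270756-74270845 (plus), Rpl38 from chr11:114668520-114668609 (plus), Rps27 from chr3:90213619-90213708 (minus) and Rpl4 from chr9:64173327-64173416 (plus).
Rpl35: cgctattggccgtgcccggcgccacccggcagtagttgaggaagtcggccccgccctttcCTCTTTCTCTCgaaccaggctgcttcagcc
Rpl10: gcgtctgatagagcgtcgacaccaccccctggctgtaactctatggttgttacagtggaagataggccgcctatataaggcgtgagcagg
Rpl38: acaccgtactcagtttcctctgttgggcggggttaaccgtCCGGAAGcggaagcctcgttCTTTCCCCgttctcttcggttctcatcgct
Rps27: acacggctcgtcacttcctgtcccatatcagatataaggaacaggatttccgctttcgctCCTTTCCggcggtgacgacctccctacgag
Rpl4: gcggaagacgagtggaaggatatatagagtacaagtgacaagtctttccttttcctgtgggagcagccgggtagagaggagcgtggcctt

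Of the 83 members, 63 matched the RefSeq promoter table. A start of C followed by at least 4 pyrimidines was found for 13 of the 63 (20.6%), against 3.01% of the 27025 genes in the table. The run measured 11 bases in Rpl35, 8 in Rpl38 and 7 in Rps27. In Rps28, also high in the comparisons below, it measured 3 bases, too short for this rule. Rpl39, also high, had none at the listed start. Rpl10 and Rpl4 had none there either, and a start listed a few bases off hides such a run. The ETS motif CCGGAAG, searched on both strands over 300 bases, was present in 26 members (41.3%) against 9.93% of all genes, and the YY1 motif AAGATGG in 10 (15.9%) against 7.28%. The TATAAA box was present in 7 members (11.1%) against 15.7% of all genes, a count too near that share to set the members apart. Matches are letters in a window and were not tied to factor binding.

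The members made up a larger share of the UMIs in both knockout libraries than in the control. Over all cells they gave 18.9% of the UMIs in the control, 23.0% in the 2-week knockout and 23.8% in the 3-week knockout. Small subunit genes gave 8.68%, 10.4% and 10.7%, and large subunit genes 10.2%, 12.6% and 13.1%, so both subunits were higher. In interfollicular basal-like cells, the dividing layer of the epidermis, the share was 21.0% (808 cells), 25.1% (1622 cells) and 26.4% (2089 cells). In bulge-like cells, which hold the hair follicle stem cells, it was 16.6%, 21.0% and 23.0%. The control was the lowest of the 3 libraries in both classes.

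Taken over summed UMIs, the share also differed between cell classes, with the same highest and lowest class in each library. Among the 13 classes with at least 50 cells in each library, it was highest in the Nppc cluster, an epithelial cluster, at 25.1%, 27.9% and 30.1%. Upper hair follicle-like cells (21.7%, 24.5% and 26.7%) and suprabasal-like cells (21.2%, 25.1% and 24.6%) stood with the basal-like cells. Cycling keratinocyte-like cells were lower than basal-like cells, at 17.4%, 20.04% and 20.4%. Those of the 13 classes that lie outside the epithelium had lower shares still. Dermal papilla-like cells had 11.96%, 15.6% and 15.7%, and fibroblast-like cells 8.67%, 12.2% and 12.9%. T or natural killer-like cells had 9.96%, 11.6% and 12.7%. Schwann-like cells were the lowest of the 13 in every library, at 6.31%, 9.36% and 11.8%. No interval over the 13 classes reached further than 0.163 percentage points from its share. The Icos cluster, an immune cluster left out of the 13 (100, 7 and 81 cells), had 17.1%, 18.4% and 22.8%. Not every class outside the epithelium was thus below the cycling keratinocyte-like class.

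Classes were not uniform inside. The Nppc cluster held cells with very few member UMIs, since its lower quartile over cells was 4.43%, 3.15% and 7.74% beside medians of 21.1%, 24.2% and 28.1%. By the median over cells it was therefore not the highest class in every library. Suprabasal-like cells had medians of 22.4%, 26.5% and 26.9%, above the Nppc cluster in the control and the 2-week knockout. In suprabasal-like cells the cluster led by Lor, a gene of the granular layer, had 17.6%, 21.1% and 19.4%, whereas the cluster led by Mt4 had 22.6%, 27.2% and 28.4%. The more differentiated cluster was lower in all 3 libraries. In upper hair follicle-like cells the cluster led by Fst had 23.1%, 25.8% and 28.5%, and the cluster led by Cst6 and Krt79 had 18.0%, 21.1% and 22.7%.

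**Figure D1:**
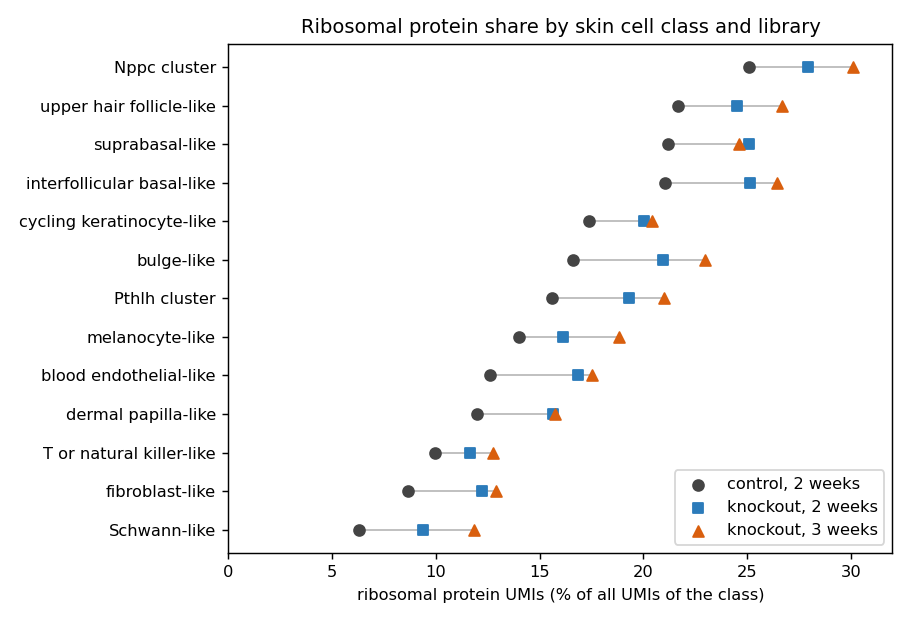
Share of all UMIs given by the 83 ribosomal protein genes (horizontal axis, percent) in the 13 cell classes with at least 50 cells in each library (vertical axis), with 1 point per library. The control lies left of both knockout libraries in every class, from 6.31% in Schwann-like cells to 25.1% in the Nppc cluster.

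At 2 weeks the share was higher than in the control in all 9 classes with at least 100 cells in both libraries. The ratio of shares had a median of 1.19 and ran from 1.11 in the Nppc cluster to 1.41 in fibroblast-like cells. At 3 weeks it was higher in all 10 classes compared, with a median of 1.27 and a range from 1.16 in suprabasal-like to 1.49 in fibroblast-like cells. The ratio was 1.19 and 1.26 in basal-like cells, 1.26 and 1.38 in bulge-like cells and 1.31 and 1.32 in dermal papilla-like cells. Both dermal classes had ratios above those of basal-like cells, but at 3 weeks bulge-like cells and the Pthlh cluster (1.35) were above dermal papilla-like cells. Pericyte or smooth muscle-like cells, with 42, 16 and 50 cells, were too few to compare and had 8.11%, 7.90% and 12.2%.

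Single clusters gave nearly the same picture. With at least 50 cells in both libraries, 17 of 18 clusters were higher at 2 weeks and 22 of 22 at 3 weeks. The exception was the fibroblast-like cluster led by Col1a2, at 8.17% in 310 control cells, 8.09% in 50 cells of the 2-week knockout and 11.7% in 582 cells of the 3-week knockout. The other fibroblast-like cluster, led by Coch, had 10.3% (128 cells), 14.2% (104 cells) and 16.5% (200 cells). The first cluster held most control and 3-week fibroblast-like cells and the second most of the 2-week ones, so the ratio of 1.41 for fibroblast-like cells at 2 weeks compares different mixtures of the 2 clusters. With the clusters weighted equally it was 1.21 at 2 weeks and 1.53 at 3 weeks. In suprabasal-like cells the cluster led by Lor, with the lower share, held 49 of 447 control cells and 322 of 1427 cells of the 3-week knockout. The 3-week ratio of 1.16 for suprabasal-like cells therefore also compares different mixtures of clusters.

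Other features of the libraries differed too. Gm42418, a locus that overlaps ribosomal RNA sequence, took 3.78% of all UMIs in the control, 1.76% in the 2-week and 1.56% in the 3-week knockout. In fibroblast-like cells it took 10.0%, 4.38% and 3.53%, and in basal-like cells 3.17%, 1.57% and 1.45%. Malat1 took 2.49%, 3.22% and 2.50% of all UMIs and mitochondrially encoded genes 3.62%, 2.81% and 3.55%. With these 3 kinds of transcript left out of the total, the median ratios of the member share were 1.175 and 1.248. Control cells were also deeper, with a median of 14889 UMIs in basal-like cells against 11136 and 12368, and among cells of 5000 to 15000 UMIs the median ratios were 1.24 and 1.33. Keratinocyte transcripts also differed outside the epithelium: the 9 basal markers summed to 743, 2735 and 1734 CPM in fibroblast-like cells, with Krt14 at 149, 1127 and 702 CPM, against 19852, 20437 and 23593 CPM in basal-like cells. In dermal papilla-like cells the sums were 671, 807 and 709 CPM. The part of these values in the member share was not tested.

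Member by member, most stayed within 1.5-fold and a few lay far outside. The values are log2 ratios of CPM with 5 CPM added to both sides, for genes with at least 50 UMIs over both libraries and 50 CPM in 1 of them. In basal-like cells 79 members passed this filter at 2 weeks, and 13 of them had a ratio of 1.5 or more, 66 lay between and 0 were lower by that much. Of all 2805 genes compared there, 2.99% were higher and 5.10% lower. With totals scaled by the trimmed mean of M-values (TMM), or with the clusters of the class weighted equally, 7 members were higher at 2 weeks. The share over all genes under these settings is not given here. At 3 weeks 13 members were higher, 1 lower and 65 between, against 4.46% and 12.8% of 2825 genes. The median log2 ratio of the members was 0.17 and 0.24, and that of all genes compared -0.03 and -0.11.

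The other classes gave similar counts at 2 weeks, with 0 members lower in any of them. In suprabasal-like and in bulge-like cells 13 of 79 members were higher, against 2.32% and 2.66% of all genes (5.97% and 5.37% lower). The upper hair follicle-like class had 8 of 80 (background 3.35% higher and 3.80% lower), and the cycling keratinocyte-like class 10 of 80 (2.70% and 4.78%). The Pthlh cluster had 13 of 80 (3.89% and 5.95%) and the Nppc cluster 8 of 79 (3.03% and 3.25%). Dermal papilla-like cells had 15 of 81 (3.57% and 5.98%). Fibroblast-like cells had the most, 18 of 79, but also the highest background, 13.1% higher and 8.88% lower.

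At 3 weeks bulge-like cells had 18 of 79 members higher (background 5.96% higher and 14.7% lower), suprabasal-like cells 8 of 79 (3.70% and 10.1%) and upper hair follicle-like cells 12 of 80 (3.28% and 10.8%). Cycling keratinocyte-like cells had 9 of 80 (4.30% and 9.58%), the Pthlh cluster 16 of 80 (7.76% and 15.3%) and the Nppc cluster 8 of 80 (5.91% and 13.9%). In the dermis, dermal papilla-like cells had 12 of 80 (7.77% and 10.3%) and fibroblast-like cells 22 of 79 (9.85% and 5.74%). T or natural killer-like cells had 9 of 78 members higher, close to the background of 10.0% (11.3% lower). In each of these classes 1 member was lower, Rpl29, except in fibroblast-like and T or natural killer-like cells, where 0 were.

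The threshold passed through a run of close values. At 2 weeks in basal-like cells Rpl37, Rpl36 and Rps21 lay just inside it, at 1.51, 1.53 and 1.54-fold, and Rpl41, Rpl24 and Rpl31 just outside, at 1.49, 1.47 and 1.31-fold. At 3 weeks Rpl37a, Rplp1 and Rpl39 were inside, at 1.51, 1.51 and 1.52-fold, and Rpl37, Rpl36a and Rps21 outside, at 1.47, 1.42 and 1.41-fold.

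Ratios were compared between classes and between members. Over the classes, the standard deviation of a member's log2 ratio had a median of 0.11 at 2 weeks and 0.12 at 3 weeks, whereas the standard deviation between members of their median ratios was 0.37 and 0.44. Of the 79 members that passed in all 9 classes at 2 weeks, 7 were at least 1.5-fold higher in every class: Rpl10, Rpl35, Rpl38, Rpl39, Rps27, Rps28 and Rps29. Of all 1597 genes that passed in all 9 classes, 0.877% were, and 0.313% were lower in every class. At 3 weeks 6 of 78 members were higher in all 10 classes, the same genes without Rpl39, against 1.14% of 1494 genes higher and 0.803% lower. In both comparisons 0 members were lower in every class. Log2 ratios above 0 in every class were found for 46 of 79 members at 2 weeks and 66 of 78 at 3 weeks. The matching share over all genes is not given here, so these counts do not set the members apart. Of the 83 members, Rpl7l1 and Rpl39l passed the filter in some classes only, as did Rpl29 at 3 weeks, and Rpl3l and Rpl10l passed in none.

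**Figure D2:**
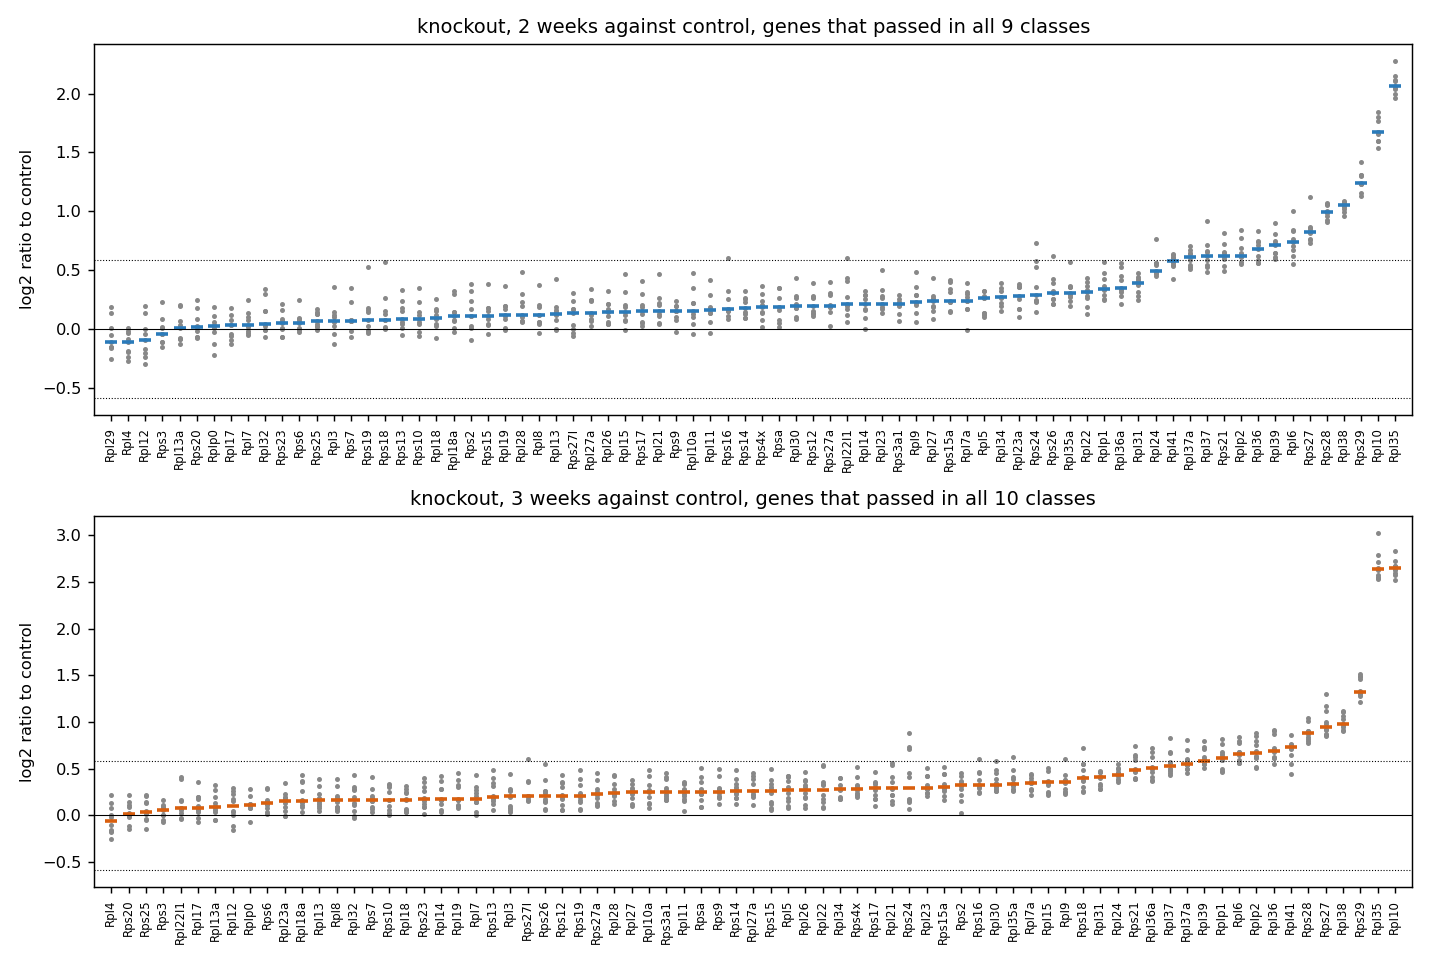
Log2 ratio of knockout to control (vertical axis) for each member that passed the filter in every class compared, with 1 grey point per class, a coloured dash at the median and dotted lines at 1.5-fold. Most of the members shown at 2 weeks (upper panel) and 3 weeks (lower panel) lie between the dotted lines, and Rpl35, Rpl10 and Rps29 stand apart at the high end of both.

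Rpl35, a protein near the exit of the nascent chain from the large subunit, differed most at 2 weeks. Its level in basal-like cells was 241 CPM in the control, 1024 CPM in the 2-week and 1526 CPM in the 3-week knockout. In dermal papilla-like cells it was 124.5, 623 and 808 CPM, and in T or natural killer-like cells 72.4, 403 and 624 CPM. The control was lowest in all 3 classes. The ratio in basal-like cells was 4.25 (4.09 to 4.42) at 2 weeks and 6.34 (6.104 to 6.58) at 3 weeks, and the median log2 ratio over classes 2.07 and 2.64.

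Rpl10, which joins the large subunit late in assembly, had 271, 874 and 1753 CPM in basal-like cells. The ratios were 3.23 (3.11 to 3.35) and 6.47 (6.25 to 6.71). In fibroblast-like cells its level was 189, 672 and 1378 CPM. The 3-week knockout was above the 2-week knockout in both classes, and the median log2 ratio over classes was 1.67 and 2.64.

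Rps29, a small zinc-binding protein of the small subunit, had 2030, 4778 and 5136 CPM in basal-like cells and 1182, 3178 and 3310 CPM in dermal papilla-like cells. It added the most to the share in basal-like cells, 0.275 percentage points at 2 weeks and 0.311 at 3 weeks. Rpl38, known from mouse mutants with skeletal patterning defects, had 1345, 2816 and 2760 CPM in basal-like cells. Rps28 had 2111, 4205 and 3899 CPM there. In these 3 genes the knockout libraries lay close together and the control far below.

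Rps27 had 2078, 3686 and 4165 CPM in basal-like cells, and Rpl39, which lines the exit tunnel, 3401, 5328 and 5159 CPM. Rpl6 had 2208, 3682 and 3540 CPM, with median log2 ratios over the classes of 0.74 and 0.66. Rpl36 had medians of 0.68 and 0.69 and the stalk protein gene Rplp2 medians of 0.62 and 0.66. Rplp1 differed less at 2 weeks (0.34) than at 3 weeks (0.62). The third stalk gene, Rplp0, was close to level in basal-like cells, at 4253, 4355 and 4635 CPM. The 3 stalk genes thus had different ratios.

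At the low end, Rpl4 had 1388, 1307 and 1290 CPM in basal-like cells, with median log2 ratios over classes of -0.11 and -0.06. Rps3, at the entry of the messenger RNA, had medians of -0.04 and 0.06. At 2 weeks Rpl12 (-0.09) and Rpl13a (0.01) were also among the lowest, and at 3 weeks Rps20 (0.02), Rps25 (0.04) and Rpl22l1 (0.08). None of these 7 was 1.5-fold lower in any class compared. Rps6, the target of S6 kinase, had 1523, 1623 and 1686 CPM in basal-like cells, and Rpsa, also known as the laminin receptor, 2916, 3263 and 3410 CPM.

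Rpl29 was the only member at least 1.5-fold lower in any class compared. Its level in basal-like cells was 160, 143 and 46.6 CPM, so the 3-week knockout stood below both libraries of day 62. It was 3.44-fold lower (3.20 to 3.69) at 3 weeks in basal-like cells. Its median log2 ratio was -0.11 over the 9 classes at 2 weeks, and -1.64 at 3 weeks over the 8 of 10 classes in which it passed the filter, with a range from -1.78 to -1.12. Among members that passed the filter in every class, Rps24 had the largest standard deviation over classes, 0.20 at 2 weeks and 0.29 at 3 weeks. Its log2 ratio ran from 0.14 to 0.73 at 2 weeks and from 0.07 to 0.88 at 3 weeks, with the lowest value in upper hair follicle-like cells at 2 weeks and suprabasal-like cells at 3 weeks, and the highest in fibroblast-like cells both times. Its level was 5259, 6152 and 5945 CPM in basal-like cells and 1504, 2493 and 2775 CPM in fibroblast-like cells.

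The share did not rest on the leading 7 members alone. Without them the remaining 76 members still had ratios above 1 in every class compared, with medians of 1.15 (1.07 to 1.35) at 2 weeks and 1.21 (1.11 to 1.41) at 3 weeks. The 7 gave 27.4% of the difference in share in basal-like cells at 2 weeks, and between 20.3% and 44.9% over all classes and both comparisons.

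Several of the leading members have near-identical copies, which makes their single values uncertain. In the annotation, 46 of the 83 members share at least 50% of the last 300 bases of the transcript with another gene, as matched stretches of 30 bases. For 9 members such a copy is itself a feature of the deposited tables and not a member. Rpl10-ps3 carries the whole end of Rpl10, and took 468, 247 and 69.7 CPM over all cells beside 253, 816 and 1603 CPM for Rpl10. The copy therefore held 64.9% of the pair in the control, 23.3% in the 2-week and 4.16% in the 3-week knockout. Their sum was 722, 1063 and 1673 CPM, a ratio of 1.47 and 2.32 where Rpl10 alone gave 3.22 and 6.33.

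Rps27rt, which carries the whole end of Rps27, took 862, 644 and 148 CPM over all cells. It held 30.002%, 14.6% and 3.69% of the pair, and the sum of 2873, 4413 and 4003 CPM had ratios of 1.54 and 1.39, against 1.87 and 1.92 for Rps27 alone. Rpl9-ps6 was lower in the same order, at 326, 236 and 60.01 CPM, as did Rpl36a-ps1 (82.5, 51.8 and 23.9 CPM) and Gm11361, a copy of Rps18 (54.6, 32.4 and 7.26 CPM). Gm10076, a copy of Rpl41, went the other way, with 75.9, 391 and 326 CPM. In these libraries the division of UMIs between a member and its copy differed, so a ratio of the member alone includes that division.

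Counted with their copies, the leading members moved by different amounts. Rpl35 with Gm2000 stayed at least 1.5-fold higher in all 9 classes at 2 weeks and all 10 at 3 weeks, with median log2 ratios of 1.89 and 2.39. Rpl10 with its copy had medians of 0.55 and 1.21 and was past 1.5-fold in 4 of 9 and 10 of 10 classes. Rps27 with its copy had medians of 0.54 and 0.49, and was past 1.5-fold in 3 of 9 and 3 of 10 classes. Rpl41 with its copy moved slightly up, to medians of 0.66 and 0.78. Rps29, Rps28, Rpl38 and Rpl39 have no such copy among the features, so no sum was formed for them. In the annotation, by the rule for shared transcript ends given above, Rps28 still shares its end with 3 other genes. Rpl38 shares it with 2, Rps29 with 1 and Rpl39 with 0. The part of these genes in the values of Rps28, Rpl38 and Rps29 was not tested. All 10 copies together held 0.194%, 0.169% and 0.0716% of the UMIs, so the share of members and copies, 19.1%, 23.2% and 23.9%, followed the members.

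Short members were higher than long ones in both comparisons. The 10 members with a coding sequence under 300 bases, among them Rps29, Rps28, Rpl38, Rps27, Rpl39 and Rpl41, had a median log2 ratio of 0.67 at 2 weeks and 0.66 at 3 weeks. The 47 members of 300 bases or more but under 600 had 0.16 at 2 weeks, and the 46 that passed at 3 weeks 0.26. The 22 members of 600 bases and over had 0.13 and 0.20. Rpl35 (372 bases) and Rpl10 (645 bases) were exceptions. Among the members under 300 bases the lowest value was 0.13 at 2 weeks and 0.21 at 3 weeks, the latter that of Rps27l (255 bases). Across members, Spearman's rho between coding length and median log2 ratio was -0.51 at 2 weeks (79 members) and -0.47 at 3 weeks (78 members). These are descriptions across genes of the same libraries, and genes are not independent replicates.

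The order by length was also seen outside the family. In basal-like cells at 2 weeks, nuclear genes other than members had a median log2 ratio of 0.30 with a coding length under 300 bases (116 genes), 0.11 with at least 300 but under 600 bases (430 genes) and -0.07 with 600 bases and over (2135 genes). The members in the same cells had 0.65, 0.15 and 0.14. Over the 9 classes at 2 weeks the medians of the other genes were 0.27, 0.09 and -0.12, and over the 10 classes at 3 weeks 0.28, 0.12 and -0.15. The part of length in the member ratios was not tested.

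**Figure D3:**
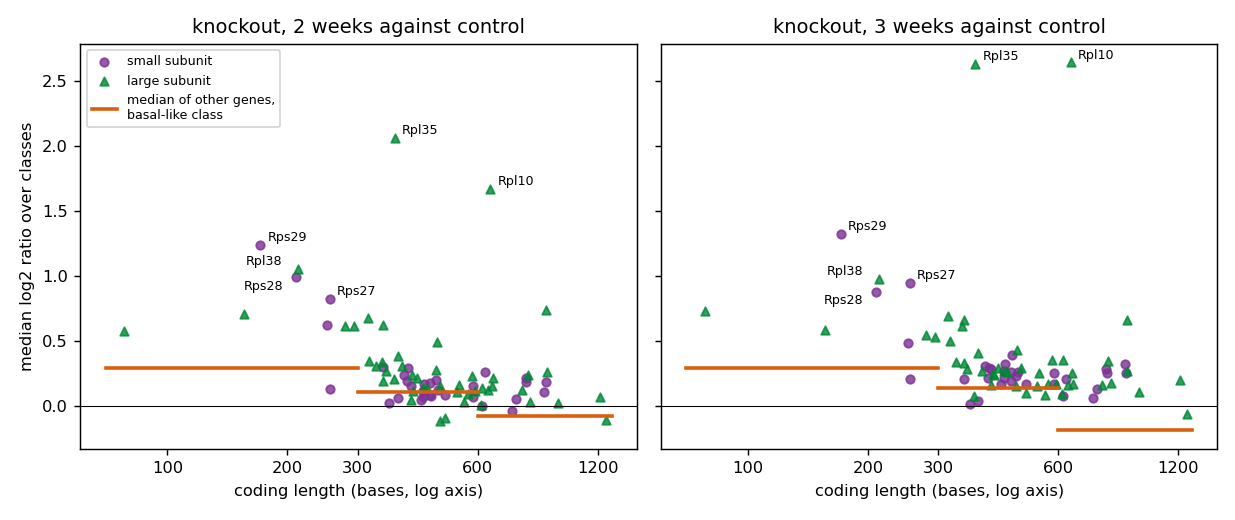
Median log2 ratio over classes (vertical axis) against coding length in bases (horizontal axis, log scale), with circles for small and triangles for large subunit genes and orange lines for the median of other nuclear genes in basal-like cells. Members under 300 bases centre on 0.67 and 0.66 and those of 600 bases and over on 0.13 and 0.20, with Rpl35 and Rpl10 far above members of their length.

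Other properties separated the members less. Members with and without a gene sharing the transcript end had medians of 0.20 (46 members) and 0.14 (33 members) at 2 weeks. Small and large subunit genes had medians of 0.15 (32 members) and 0.21 (47 members). The 13 members with a pyrimidine start had 0.24 at 2 weeks and 0.35 at 3 weeks, and the 46 with a listed start but no such run 0.18 and 0.26.

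To look at the make-up of the family apart from its size, the UMIs of each member were taken as a percentage of all member UMIs in that class and library. The clusters were made without member genes among the variable genes, so the members did not choose the cells. Of the 83 members, 78 had at least 20 UMIs in every one of the 13 classes and 3 libraries. The highest class exceeded the lowest at least 2-fold in CPM in all 3 libraries for 75 of 78 members (96.2%), against 81.4% of 974 genes, and at least 4-fold for 3 of 78 (3.85%), against 22.9%. As a percentage of the family, the median range between the highest and the lowest class was 0.50, 0.50 and 0.51 on the log2 scale. Only 3 of the 78, Rplp0, Rps27l and Rplp1, had a range of at least 1 in all 3 libraries. The highest class was the same in all 3 libraries for 37 members and the lowest for 33. T or natural killer-like cells were the highest class for 12 members and the lowest for 10. That class was among the smaller ones (104, 90 and 206 cells). Such counts over all genes are not given here, so they are not shown to be particular to the members.

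Rplp0 was highest in suprabasal-like cells, at 2.57% of member UMIs in the control, 2.26% in the 2-week and 2.33% in the 3-week knockout. It had 2.02%, 1.73% and 1.75% in basal-like cells, and 1.19%, 0.953% and 0.934% in bulge-like cells. Epidermal classes were thus above the bulge-like class in each library. Its partner on the stalk, Rplp1, was highest in T or natural killer-like cells, at 2.81%, 3.34% and 3.41%, and had 1.49%, 1.52% and 1.70% in bulge-like cells. Rplp2 was also highest in T or natural killer-like cells, at 1.60%, 1.75% and 1.80%, and lowest in suprabasal-like cells, at 0.856%, 1.06% and 1.05%. The T or natural killer-like class, in contrast, had little Rplp0, at 1.07%, 0.991% and 0.963%.

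Rps19, mutated in Diamond-Blackfan anaemia, was highest in upper hair follicle-like cells, at 2.11%, 1.85% and 1.89%, and lowest in T or natural killer-like cells, at 1.06%, 1.01% and 0.965%. Rpl10a went from 1.01%, 0.938% and 0.958% in basal-like cells to 0.505%, 0.539% and 0.478% in T or natural killer-like cells. These orders held in each of the 3 libraries. Rpl10 was also among the 8 members with the widest ranges. Counted with its copy it had 0.578%, 0.737% and 1.10% in dermal papilla-like and 0.362%, 0.447% and 0.691% in basal-like cells, again higher in the dermal class in each library.

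**Figure D4:**
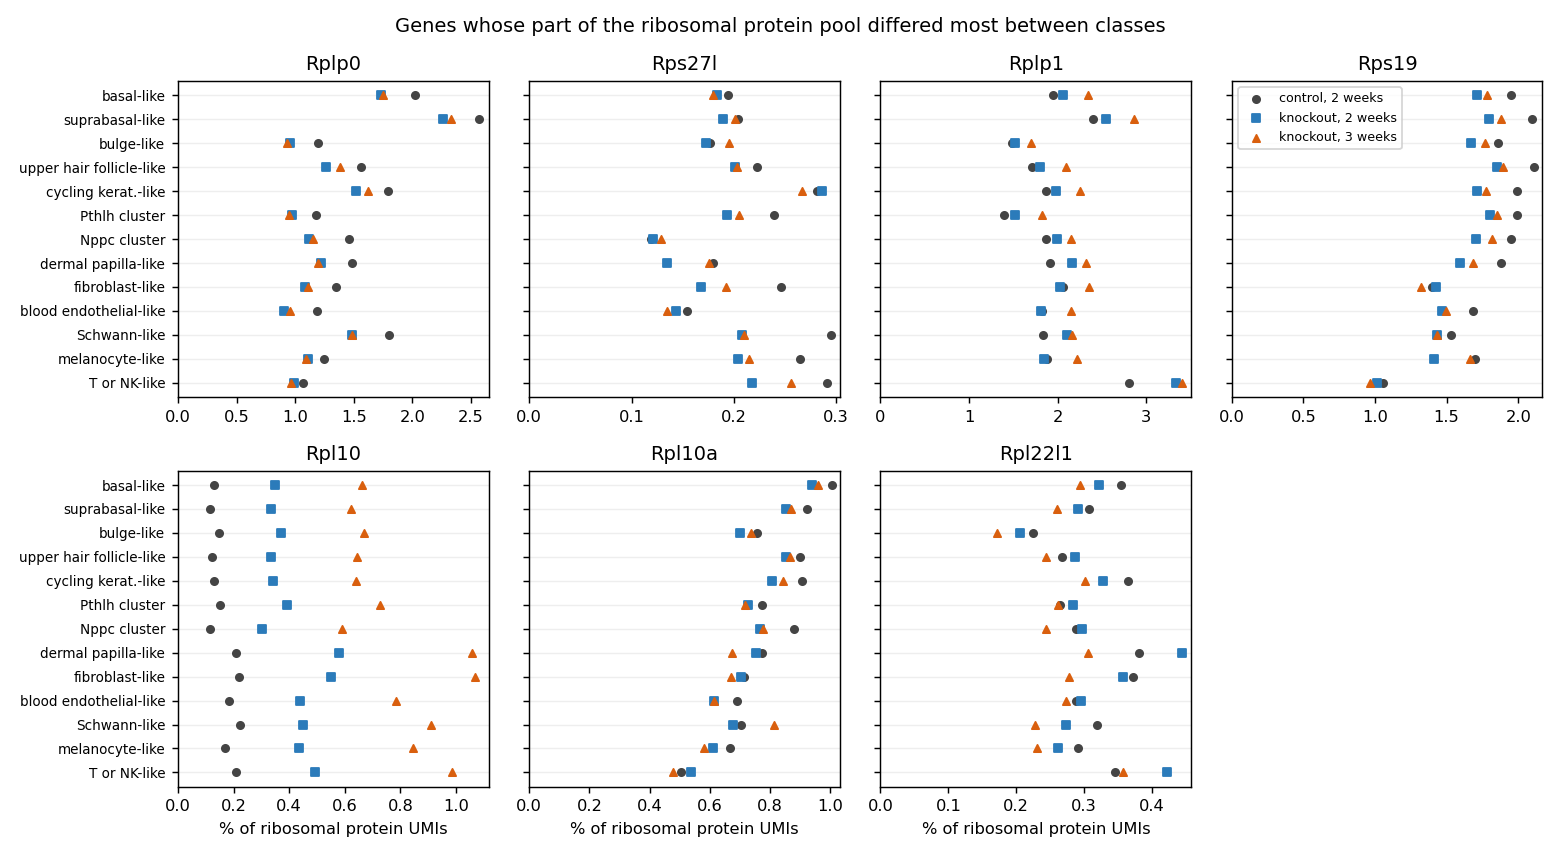
Percentage of all member UMIs for members that differed most between classes (1 panel each), by class (vertical axis) and library (points). Suprabasal-like cells stand out for Rplp0 and T or natural killer-like cells for Rplp1, while the 3 libraries mostly lie close together within a class, except for Rpl10.

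Paralogues showed the clearest division between tissues. Rpl39l, which replaces Rpl39 in some ribosomes and is known from the testis, was counted mainly in the dermal classes among those with 50 cells in each library. It had 47.2, 61.2 and 41.8 CPM in dermal papilla-like cells (107, 183 and 160 UMIs) and 46.8, 46.1 and 57.9 CPM in fibroblast-like cells (188, 45 and 292 UMIs). T or natural killer-like cells had 8, 4 and 8 UMIs, or 17.6, 13.004 and 9.91 CPM. Bulge-like cells had 0 UMIs in each library, which allows Rpl39l up to 0.0265%, 0.00355% and 0.0142% of the pair with Rpl39, and each other epithelial class had at most 8 UMIs in a library. In dermal papilla-like cells it made up 2.68%, 1.99% and 1.63% of the pair, a small part in each library.

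Rps27l, a target of p53, was compared with Rps27 as a percentage of both. It was highest in cycling keratinocyte-like cells among keratinocyte classes, at 23.0%, 17.2% and 15.6%, and had 16.4%, 11.1% and 10.2% in basal-like and 11.2%, 7.94% and 8.14% in bulge-like cells. The lowest values were those of the Nppc cluster, at 8.50%, 5.81% and 5.97%. The control was above both knockouts in each of these 4 classes. Rps27l itself had 408, 461 and 474 CPM in basal-like cells, so its level was not lower in the knockouts there. With Rps27rt added to the sum, its percentage in basal-like cells was 12.1%, 9.67% and 9.87%, and in cycling keratinocyte-like cells 17.4%, 15.1% and 15.1%.

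Rpl22l1, the paralogue of Rpl22, an RNA-binding protein of the large subunit, made up 26.1%, 24.3% and 24.8% of the pair over all cells. It was lowest in bulge-like cells, at 19.9%, 18.7% and 17.3%, and reached 35.3%, 38.6% and 30.9% in dermal papilla-like and 33.4%, 37.4% and 31.2% in T or natural killer-like cells. Basal-like cells lay between, at 28.3%, 26.1% and 26.2%. Rpl7l1, the relative of Rpl7, made up 2.02%, 2.01% and 1.95% of its pair in basal-like cells and 4.51%, 5.17% and 4.20% in T or natural killer-like cells. Rpl3l, a heart and skeletal muscle gene, had 5 UMIs in all cells, and Rpl10l, a testis gene, had 0, which allows up to 0.0501, 0.0324 and 0.0271 CPM in the 3 libraries.

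**Figure D5:**
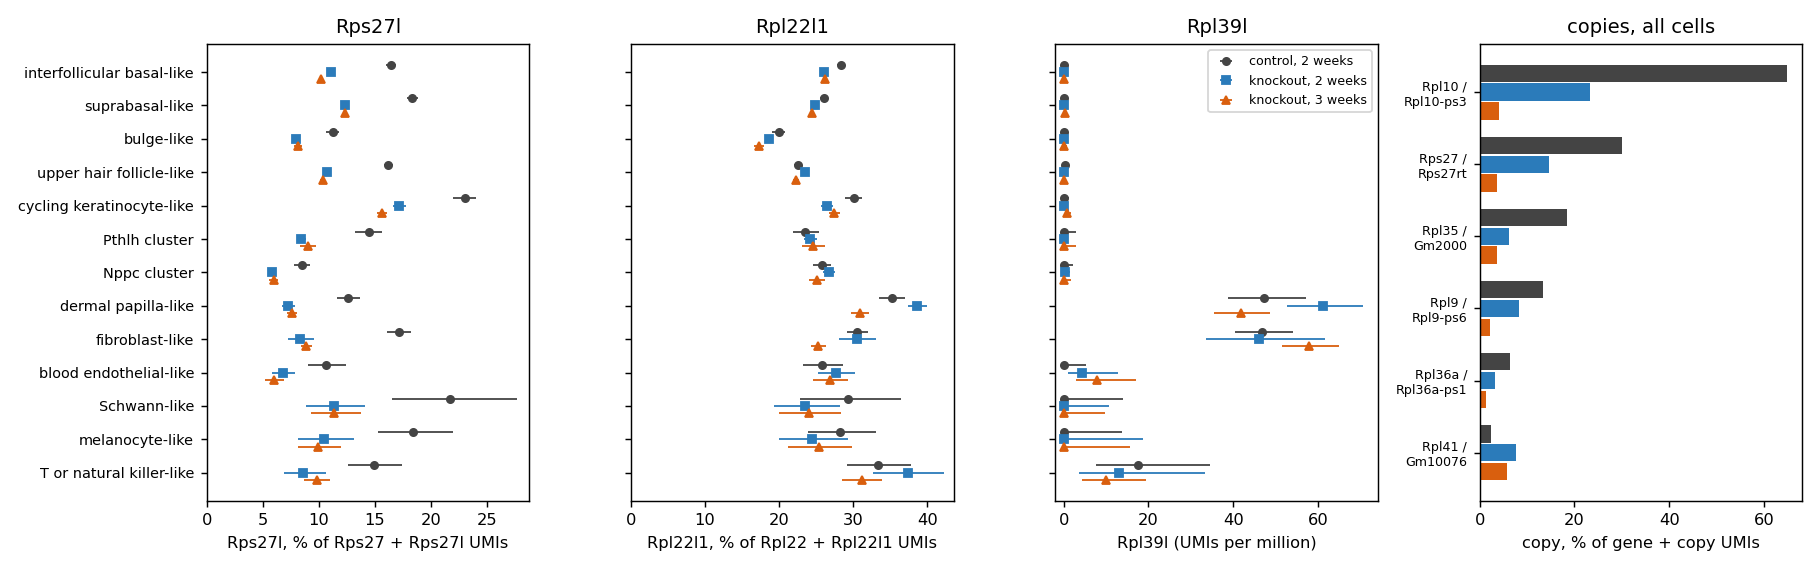
Left 3 panels: Rps27l and Rpl22l1 as a percentage of their pair, and Rpl39l in CPM, by class and library with exact 95% intervals. Right panel: percentage of the UMIs of a gene and its copy that were counted to the copy over all cells, which fell from 64.9% to 4.16% for Rpl10-ps3 and from 30.002% to 3.69% for Rps27rt between the control and the 3-week knockout.

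In summed UMIs over the 3 libraries, Rpl13 (1500021), Rps24 (1415673), Rps12 (1310012) and Rplp1 (1289553) were among the most counted members. Each molecule is counted once at its 3′ end, so these counts were not divided by length. Rpl13 had 5168, 5899 and 5807 CPM over all cells. At the other end, Rpl10l, Rpl3l, Rpl39l (1087), Rpl7l1 (11569) and Rpl29 (23331) were the least counted.

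Other genes of translation were described by the same ratios, and no difference between a list and the members was tested. The lists were chosen with earlier results of these data known, and counts are for basal-like cells. Of all genes compared in these cells, 2.99% were at least 1.5-fold higher and 5.10% lower at 2 weeks. At 3 weeks 4.46% were higher and 12.8% lower, and the median log2 ratios of all genes were -0.03 and -0.11. List counts near these shares do not set a list apart. Fau, a ribosomal protein gene outside the symbol rule whose product is made as a fusion, had log2 ratios of 0.39 and 0.32. Rpl36al had 936, 1058 and 1002 CPM (log2 ratios 0.18 and 0.10), and Rack1, a scaffold protein on the small subunit, had 2119, 2174 and 2215 CPM (0.04 and 0.06). Of 16 elongation factors and other TOP messenger RNAs, all 16 passed the filter, 0 were past 1.5-fold at 2 weeks and 1, Pabpc1, was lower at 3 weeks (-0.85). Their medians were 0.03 and 0.06.

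The 16 initiation factor genes had medians of -0.22 and -0.32, with 0 past 1.5-fold at 2 weeks and 4 lower at 3 weeks. Eif5, which promotes the hydrolysis step of start codon recognition, had -0.55 and -0.70. Ribosome biogenesis genes, of which 16 of 30 passed, had medians of -0.12 and -0.33, with 0 and 2 lower. Among them Sbds, which acts in maturation of the large subunit, had -0.58 and -0.66, and Nop10 had 0.32 and 0.34. Of 13 regulators 5 passed, with medians of -0.24 and -0.34. Rheb, the activator of mTOR, was lower in both comparisons, at -0.63 and -0.70, and Myc had 0.17 and 0.15. Of the 8 snoRNA host genes 6 passed, with medians of 0.27 and 0.12, and Snhg8 was past 1.5-fold at 2 weeks (0.62).

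Mitochondrial ribosomal protein genes, of which 22 and 24 of 78 passed, had medians of 0.15 and 0.25, with 0 and 1 higher. Nuclear genes of oxidative phosphorylation, of which 70 and 71 of 80 passed, had a median of 0.23 in both comparisons and 3 higher in each, among them Atp5k (1.13 and 1.01). Mitochondrially encoded genes had medians of -0.34 and -0.14, and mt-Nd4l, the shorter of a pair on 1 transcript, had 1.30 and 1.66. Immediate early genes, which respond to tissue handling among other things, had 4 of 16 higher at 2 weeks and 11 of 16 at 3 weeks, with medians of 0.23 and 0.75 and Fos at 1.20 and 1.53. In bulge-like cells 0 of the 16 immediate early genes passed 1.5-fold in either comparison. Of all genes compared there, 2.66% were higher at 2 weeks and 5.96% at 3 weeks, and 5.37% and 14.7% were lower. The part of these genes in the member values was not tested.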

How the data were processed

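The deposited files held, for each of the 3 libraries, whole-number UMI counts per gene and cell barcode, made by the authors with Cell Ranger 6.1.2 on mm10, per the submitters' processing notes. No source used here names the annotation release or the treatment of intronic reads. Rules for the genes to name, the members and all gene lists were chosen with earlier results of these data known. Adding copies to the members, leaving out the members past 1.5-fold in every class, and giving classes of 50 to 100 cells as values only were chosen after seeing the data.

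Cells with under 500 genes or at least 15% mitochondrial UMIs were removed, as were doublets called by Scrublet in scanpy 1.11.5, which kept 4912 of 5621, 9585 of 11144 and 9599 of 11186 barcodes. The libraries were clustered together without batch correction (2000 variable genes, 30 components, 15 neighbours, leidenalg 0.10.2, resolution 1), and clusters were named from marker lists. UMIs were summed by class and library, giving 59895993, 92696668 and 110833888 UMIs in kept cells. Ratios are log2 ratios of CPM with an offset of 5. A call is a 1.5-fold difference, and comparisons need 100 cells in both libraries. Intervals for shares are exact binomial (Clopper-Pearson), and those for ratios are exact and conditional on the summed count (scipy 1.17.1). TMM factors came from edgeR 4.0.16, of which no test was used. Sequences came from GENCODE vM21 transcripts and the RefSeq promoter table. The code for ratios and intervals was tested on simulated data.

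Named genes are the 5 most and 5 least counted members, the 6 highest and 6 lowest by median ratio in each comparison, the 8 that differ most between classes, paralogue pairs, the 3 nearest the threshold on either side, the stalk genes, Rpsa, Rps6 and Rpl41, and up to 2 genes either way from each other list. Rpl6, Rplp2 between classes and the copies were singled out after their values were seen. A few of these genes are not reported here by name, in the text or the figures, and all counts and shares include them.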

Additional observations from a re-analysis of the deposited data

How the results depend on the processing

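With 1 library per group nothing was tested, and library and group cannot be told apart. No paired analysis was possible because each group has 1 library. The member share was higher in the knockouts in all 9 classes at 2 weeks and all 10 at 3 weeks under each of the 8 alternatives, with median ratios of 1.15 to 1.24 and 1.21 to 1.33. In basal-like cells, of 13 members at least 1.5-fold higher at 2 weeks, 7 were counted with TMM-scaled totals, 7 with clusters weighted equally and 4 at a threshold of 2-fold. The 13 at 3 weeks became 5 at a threshold of 2-fold and 26 at the looser of the thresholds tried. The shares over all genes at these settings are not given here, so these counts do not set the members apart from other genes. Stricter and looser thresholds change a count by construction, and for the other settings the cause was not tested. TMM moved log2 ratios by -0.28 to 0.10 at 2 weeks and -0.20 to 0.11 at 3 weeks, depending on the class. Of the 8 members that differed most between classes, 5 were among the leading 8 with at least 100 UMIs in every class. Keeping the members among the variable genes gave no separate value, since 0 of them were chosen as variable. Outside the dermal classes each library had at most 8 Rpl39l UMIs per class. Depth limits this value in small classes such as T or natural killer-like cells (104, 90 and 206 cells). It does so less in larger classes such as bulge-like cells (529, 2941 and 868 cells).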
